A study of Mus musculus with 69 samples.

Results

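Imprinted genes are transcribed from only 1 parental copy, and many of them set fetal growth and are silenced after birth in most organs. The 10 genes described here are H19, Igf2, Dlk1, Meg3, Grb10, Peg3, Mest, Plagl1, Igf2r and Ndn, out of 56953 gene rows in the count tables of cultured vascular cells. They were taken by symbol, and they were put forward because H19 fell in WT VSMC and Dlk1 fell in KO VSMC under ALL stressors in these same libraries. All values of these genes in those 2 contrasts are therefore given as a description without p-values, and that they met the thresholds there only repeats how they were chosen. The contrasts of HG + FFA and AII + NA in VSMC share their Control libraries, so their tests are not fully independent of the choice.

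WT VSMC were smooth muscle cells from the aorta of male C57BL/6 mice, KO VSMC came from mice with a floxed Egfr gene and Cre driven by the SM22 promoter, and EC were CD31-selected cells from the heart, labelled wildtype. After 24 h without serum, the cells of an animal were kept for 24 h under Control conditions, with 20 mM glucose and 100 µM free fatty acids (HG + FFA), with 30 nM angiotensin II and 300 nM epinephrine (AII + NA), or with all of these together (ALL). These are the names and doses of the labels, while the methods of the study name norepinephrine, and oleate and palmitate at that dose each. The 4 libraries of an animal and passage form a set. WT VSMC had 4 sets (1 to 4), KO VSMC had 4 sets (5 to 8, with n = 3 for ALL) and EC had 10 sets (9 to 18, with n = 9 for Control and AII + NA), of which sets 17 and 18 share an animal. Some animals gave both cell types, namely those of EC sets 9 and 10 with WT VSMC sets 1 and 2, and those of EC sets 15 and 16 with KO VSMC sets 7 and 6. EC sets 15 and 16 are thus labelled wildtype although their animals gave KO VSMC, and their genotype is in doubt. Both sets are in the EC fits of the stressors and among the EC compared with WT VSMC.

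Total counts were between 17166133 and 43240489 over the 69 libraries. Egfr had a mean of 246 to 430 FPM (fragments per 1000000 of the TMM-scaled library size) per WT VSMC set, between 0.959 and 1.84 FPM in KO VSMC sets 6, 7 and 8, and 36.5 FPM in KO VSMC set 5. In EC it was lowest in sets 16 and 15, with 2.61 and 9.31 FPM, and 12.6 to 154 FPM in the other sets. The genotype of EC sets 15 and 16 was not tested. The 8 endothelial markers summed to 126 to 354 FPM in the VSMC sets and to 352 to 5557 FPM in the EC sets, with EC sets 9, 11 and 13 lowest at 352, 415 and 410 FPM. The labelled cell type is therefore weakly marked in these 3 EC sets, where the 7 fibroblast markers summed to 2747, 6169 and 6264 FPM. EC sets 16 and 17 also had more fibroblast than endothelial marker RNA, with 2419 beside 1390 FPM and 3623 beside 975 FPM. The main EC values are therefore also given without sets 9, 11 and 13. The fibroblast markers summed to between 3257 and 8050 FPM in WT VSMC, where the 7 smooth muscle markers summed to between 705 and 1220 FPM and Myocd stayed below 1 FPM. EC sets 11 and 13 had 3233 and 2907 FPM of these smooth muscle markers, and the other EC sets had at most 777 FPM. VSMC and EC were prepared in different batches, so batch and cell type cannot be told apart.

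Several of these genes act on the same growth pathway. Igf2, made from the paternal copy, encodes a growth factor, Igf2r, made from the maternal copy in mice, encodes the receptor that clears it, and Grb10 encodes an adaptor that restrains insulin and IGF receptor signalling. H19 and Meg3 are long non-coding RNAs made from the maternal copy, each from the domain of a paternally expressed partner, Igf2 for H19 and Dlk1 for Meg3. Dlk1 encodes a transmembrane protein related to Notch ligands that holds progenitor cells back from differentiation. Plagl1 encodes the zinc finger factor ZAC1, known to act on other imprinted genes, Peg3 encodes another zinc finger protein, Mest a protein of the hydrolase fold, and Ndn the growth suppressor necdin.

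H19 is also the precursor of a microRNA, and an intron of Mest holds another. Poly(A) libraries do not measure these small RNAs, so whether they changed with their host RNAs was not tested. The mature sequences are given from RefSeq with bases 2 to 8, the seed that pairs with targets, in capitals, and the 4 seeds differ from each other. The miR-675 arms lie on the minus strand in an exon of H19, at chr7:142130849-142130870 and chr7:142130815-142130836, and the miR-335 arms on the plus strand in an intron of Mest, at chr6:30741313-30741335 and chr6:30741353-30741374 (GRCm39).
mmu-miR-675-5p: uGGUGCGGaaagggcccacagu
mmu-miR-675-3p: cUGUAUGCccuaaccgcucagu
mmu-miR-335-5p: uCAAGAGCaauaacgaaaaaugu
mmu-miR-335-3p: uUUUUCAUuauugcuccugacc

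Imprinting rests on methylation of CpG, which was not measured here. The start regions of Dlk1 and Plagl1 are shown because both genes were lower together with H19 in WT VSMC under ALL stressors. The source held no window for H19. Whether the CpG of these windows bear on the imprint or on the changes was not tested. The windows run from 250 bases before to 50 after a RefSeq start (table of GRCm38.p6, matched exactly to GRCm39), on the plus strand, at chr12:109418499-109418798 for Dlk1 and chr10:12966326-12966625 for Plagl1, with each CpG in capitals. Of 32851 such windows of the mouse genome 94.6% hold a CG, with a median of 7. The Dlk1 window has 9 CpG and 55.7% GC, and 45.8% of windows have at least as many CpG. The Plagl1 window has 26 CpG and 70.7% GC, a CpG number reached by 16.9% of windows. The letters GGGGCCCC, a palindrome used here as a motif for the ZAC1 protein, were searched in the 16 windows of the 9 matched genes and occurred in the Peg3 window only, against 1.08% of all windows.
Dlk1: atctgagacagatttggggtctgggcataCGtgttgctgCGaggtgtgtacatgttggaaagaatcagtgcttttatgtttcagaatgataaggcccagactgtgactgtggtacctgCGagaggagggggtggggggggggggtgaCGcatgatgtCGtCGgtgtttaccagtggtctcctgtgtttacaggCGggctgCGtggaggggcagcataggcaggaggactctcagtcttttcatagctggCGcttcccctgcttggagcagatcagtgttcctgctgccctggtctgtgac
Plagl1: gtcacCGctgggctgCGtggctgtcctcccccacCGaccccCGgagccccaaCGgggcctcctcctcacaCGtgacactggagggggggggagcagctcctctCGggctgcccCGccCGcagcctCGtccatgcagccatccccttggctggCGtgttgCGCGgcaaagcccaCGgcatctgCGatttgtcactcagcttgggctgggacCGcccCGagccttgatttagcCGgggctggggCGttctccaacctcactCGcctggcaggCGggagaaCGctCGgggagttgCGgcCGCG

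Per length of exon, Ndn, Igf2r, H19, Meg3 and Grb10 formed the upper group in WT VSMC, with medians over the 4 set means of 53.4, 40.8, 31.9, 31.2 and 30.3 FPKM (FPM per kb of exon). Plagl1 followed with 4.38 FPKM, and Dlk1, Peg3 and Mest were low with 0.836, 0.772 and 0.271 FPKM. Igf2 was nearly silent in WT VSMC, with 0.0301 FPKM. The ranges of the set means of Igf2r, H19, Meg3 and Grb10 overlap, so their order is not resolved, and the same holds for Plagl1 beside H19, Meg3 and Grb10 and for Dlk1 beside Peg3 and Mest. The set means of H19, from 5.82 to 123 FPKM, also span the 50.1 to 57.4 FPKM of Ndn, so Ndn and H19 are not resolved either.

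In KO VSMC, Ndn (49.3 FPKM), Igf2r (26.9 FPKM) and Meg3 (24.5 FPKM) had the highest medians, followed by Grb10 with 8.34 and H19 with 4.18 FPKM. In EC the order of the medians began with Igf2r (31.4 FPKM), Ndn (20.3 FPKM), Grb10 (12.9 FPKM) and Mest (9.18 FPKM), and Dlk1 was next to last with 0.357 FPKM. Igf2 had the lowest median of the 10 genes in all 3 cell types. In KO VSMC only Ndn at the top and Igf2 at the bottom were apart from their neighbours in the range of set means, and in EC the ranges of all neighbours in the order overlap.

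**Figure D1:**
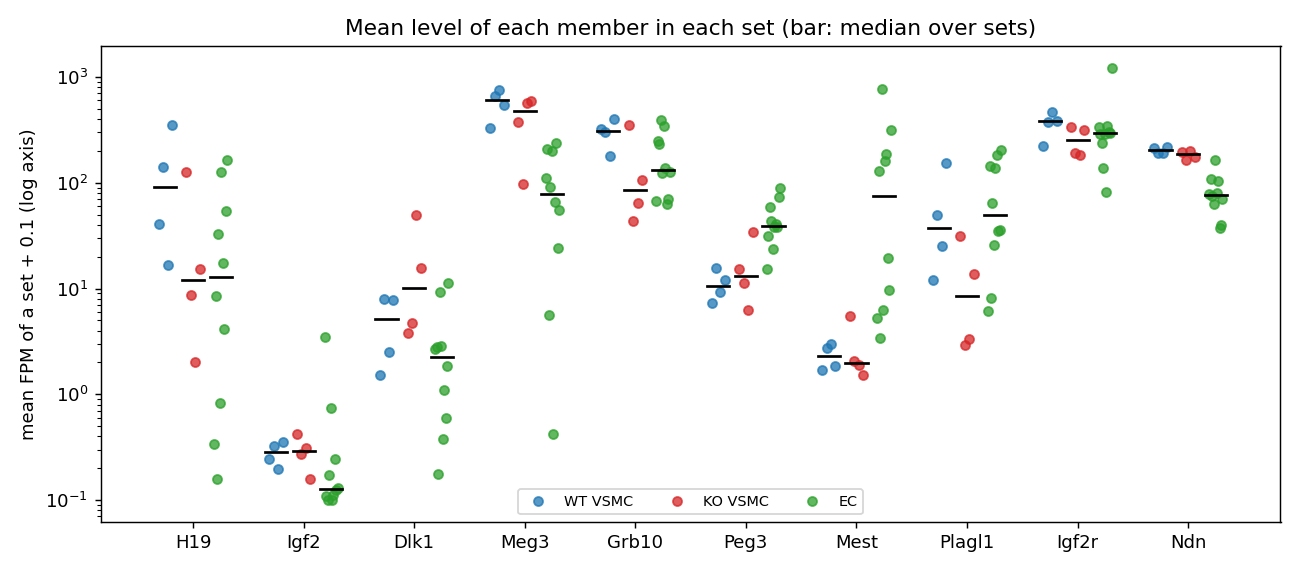
Mean FPM + 0.1 of each set (log axis) for the 10 genes in WT VSMC (4 sets), KO VSMC (4 sets) and EC (10 sets), with each point 1 set and the bar the median over sets. Ndn has nearly the same level in all 8 VSMC sets, and H19, Meg3 and Mest spread over more than 2 powers of 10 between EC sets. Igf2 lies near the bottom except in EC set 9, with 3.37 FPM.

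The animals differed from each other far more in some of these genes than in others. The set means of Ndn in WT VSMC lay between 189 and 217 FPM, a ratio of 1.15 between the highest and lowest, whereas H19 ran from 16.6 FPM in set 3 to 351 FPM in set 4, a ratio of 21.2. Plagl1 had a ratio of 12.8 in WT VSMC, from 12.05 to 154 FPM, and Dlk1 had a ratio of 5.62. In KO VSMC the ratio was 66.5 for H19, from 1.92 FPM in set 7 to 127 FPM in set 5, and 13.2 for Dlk1, from 3.72 to 49.2 FPM. The set took 76.1%, 90.6% and 96.6% of the sum of squares of log2 H19 for WT VSMC, KO VSMC and EC, and the condition 17.98% in WT VSMC. For Dlk1 the set took 74.8%, 83.7% and 90.9%, and the condition 20.6% in WT VSMC. The summed fibroblast markers rank the 4 WT VSMC sets in the same order as H19, with 3257 FPM in set 3, 3292 in set 1, 6744 in set 2 and 8050 FPM in set 4, and KO VSMC set 5, the highest in H19 of its genotype, had 5380 FPM against 1273 to 1679 FPM in the other 3 sets. The order was not kept elsewhere. KO VSMC set 8 had the fewest fibroblast transcripts of its genotype (1273 FPM) and the second highest H19 (15.2 FPM), EC sets 11 and 13 had the most of all EC sets (6169 and 6264 FPM) with 0.0596 and 0.731 FPM of H19, and EC sets 14 and 18 had 308 and 626 FPM with the most H19 in EC (125 and 162 FPM). The part of this in the level of H19 was not tested, and in bulk RNA fewer cells of a type and less RNA per cell cannot be told apart.

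H19 (ENSMUSG00000000031, GRCm39 chromosome 7, 142129262 to 142133957, minus strand) had the log2FC furthest below 0 of the 9 fitted genes under ALL stressors in WT VSMC. In set 1 it went from 64.3 FPM in Control to 30.9 with HG + FFA, 45.1 with AII + NA and 21.2 with ALL. In set 2 the 4 values were 242, 164, 115 and 43.3 FPM, and in set 3 they were 34.3, 4.10, 25.7 and 2.27 FPM. In set 4, the highest, they were 563, 342, 355 and 146 FPM. Every stressed library was below the Control library of its own set, and in every set the ALL library was the lowest, although the 4 groups overlap because the sets lie so far apart. H19 under ALL was 6.62% to 32.9% of Control, with a log2FC of −2.33 ± 0.37 (SE, n = 4) that met all thresholds for a DEG in this study, which are an FDR under 0.05 in both edgeR and DESeq2, a |log2FC| of at least 0.64 and a mean of 3 FPM in a compared group. Of all genes, 2.18% were DEG in this contrast, which chose the gene.

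**Figure D2:**
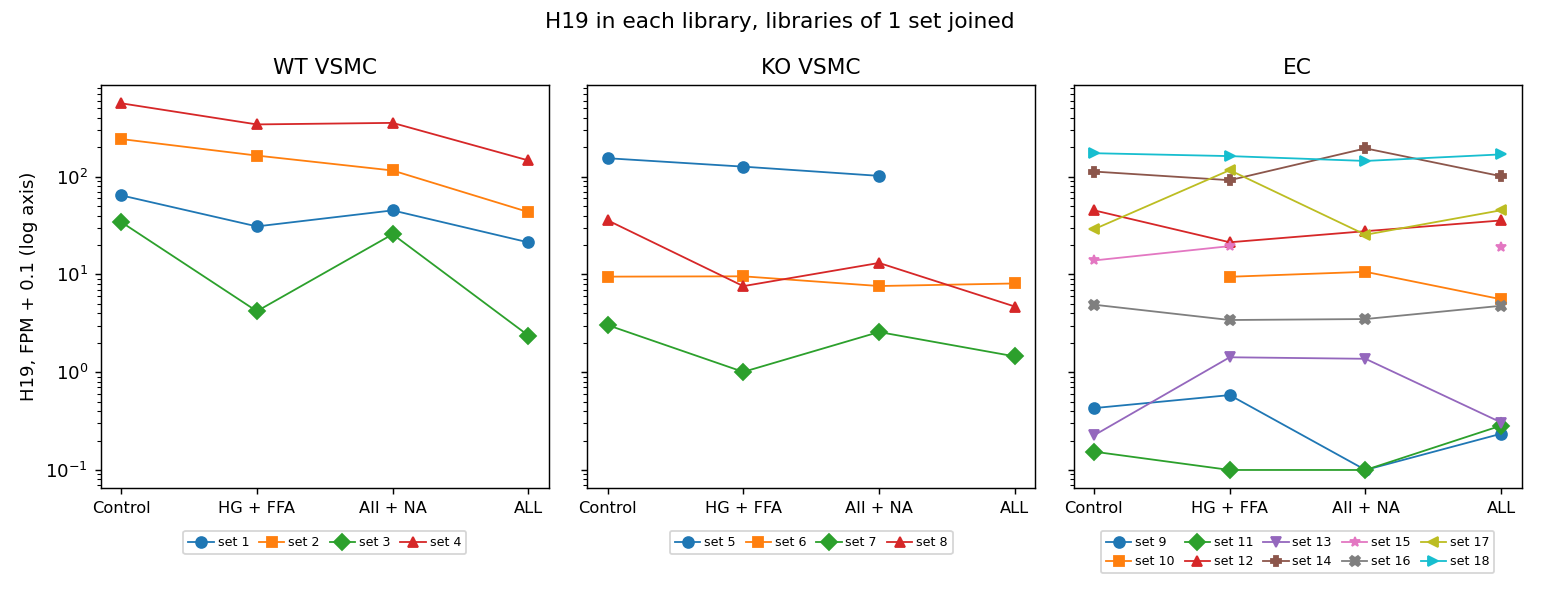
H19 in each library of WT VSMC, KO VSMC and EC as FPM + 0.1 on a log axis, with the libraries of a set joined by a line across Control, HG + FFA, AII + NA and ALL. All 4 WT VSMC lines end at their lowest value under ALL, while the EC lines run without a common direction.

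With each stressor pair alone H19 was below Control in all 4 WT VSMC sets, but the differences did not pass the test with all conditions in the fit. With HG + FFA it was between 11.97% and 67.7% of Control, with a log2FC of −1.16 ± 0.35 (edgeR FDR = 0.182). With AII + NA it was between 47.7% and 74.8%, with a log2FC of −0.64 ± 0.35 (edgeR FDR = 0.600). With only the Control and AII + NA libraries in the fit it was −0.67 and was called. The step from AII + NA to ALL was −1.69 ± 0.36 and met the thresholds of a DEG, as 0.538% of all genes did, but it is given without a p because it uses the ALL libraries for which the gene was chosen. It met them without set 3 but not without set 1, 2 or 4, with a log2FC between −1.93 and −1.26. For the same reason no p is given for the step from HG + FFA to ALL, which was −1.17 ± 0.36, nor for the departure from additivity, that is ALL minus both single effects on the log2 scale, which was −0.53 ± 0.49. The edgeR fit called 0 genes of all in that contrast, with 1.72% at an unadjusted p under 0.05, and DESeq2 alone called 0 as well.

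In KO VSMC, H19 had 154, 126 and 102 FPM under Control, HG + FFA and AII + NA in set 5, for which ALL was not analysed here. In set 6 the 4 conditions gave 9.39, 9.46, 7.51 and 7.98 FPM, in set 7 they gave 2.93, 0.907, 2.48 and 1.35 FPM, and in set 8 they gave 35.7, 7.49, 13.01 and 4.59 FPM. Set 6 thus hardly moved while H19 in set 8 was far below its Control. The log2FC was −0.96 ± 0.33 with HG + FFA (edgeR FDR = 0.290) and −0.80 with AII + NA (edgeR FDR = 0.509). Under ALL it was −1.41 ± 0.40 (n = 3, between 12.9% and 85.0% of Control) and did not meet the thresholds. It ranged from −2.08 to −0.56 when a set was left out. In the same KO VSMC libraries, in which Dlk1 and Plagl1 were also lower, the summed fibroblast markers had a mean log2 ratio of −0.36 ± 0.39 (SD, lower in 3 of 3 sets), and their part in these changes was not tested. The log2FC under ALL in WT VSMC minus the KO VSMC value was −0.93 ± 0.61, given as a description.

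In EC, H19 ran from 0.0539 to 174 FPM under Control with a median of 13.8 FPM, and the set means went from 0.0596 FPM in set 11 to 162 FPM in set 18. The 3 sets with low endothelial markers were also the 3 lowest in H19, with 0.237, 0.0596 and 0.731 FPM in sets 9, 11 and 13. It had 0 counts in 3 of 38 EC libraries, which at their depth allows up to 0.119 to 0.185 FPM. No stressor gave a common direction, with 5 of 9 sets lower with HG + FFA (log2FC 0.31, edgeR FDR = 0.632), and without EC sets 9, 11 and 13 the log2FC was 0.21 (edgeR FDR = 0.793). The counts of its partner Igf2 were at or near 0 in most libraries of all cell types. It had 0 counts in 19 of 38 EC libraries, 2 of 15 KO VSMC libraries and 1 of 16 WT VSMC libraries, the highest count in VSMC was 16, and its exons share 65.5% of their length with other genes. Only EC set 9 held Igf2 in all 4 libraries at a level above 2 FPM, with a set mean of 3.37 FPM. No test was made within a cell type for Igf2, which did not pass the filter on low counts, so 9 of the 10 genes were tested there.

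Dlk1 (ENSMUSG00000040856, chromosome 12, 109418749 to 109429262, plus strand) was the one gene of the list that was a DEG with HG + FFA in WT VSMC and in EC. In WT VSMC, Control and HG + FFA gave 2.22 and 0.896 FPM in set 1, 10.9 and 6.43 FPM in set 2, 5.39 and 0.838 FPM in set 3, and 10.3 and 5.85 FPM in set 4. It was lower in 4 of 4 sets, at 15.5% to 59.2% of Control, while the groups overlap. The log2FC was −1.31 ± 0.23 (edgeR FDR = 0.0163, DESeq2 FDR = 8.16e-06), and Dlk1 was the only one of the 9 tested genes among the DEG, which made up 0.284% of all genes in this contrast. Without set 1 the call was lost, with a log2FC between −1.54 and −0.90 over the sets left out. It was also lost when only the Control and HG + FFA libraries of WT VSMC were fitted (log2FC −1.25), where 76 genes of all were DEG beside 48 in the reported fit. The counts behind these values were 74 to 317 per Control library and 29 to 182 with HG + FFA.

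With AII + NA alone, Dlk1 in WT VSMC was 1.68, 9.001, 2.05 and 10.3 FPM in sets 1 to 4, and the log2FC of −0.51 ± 0.22 did not pass (edgeR FDR = 0.485). Under ALL it was 0.844, 5.40, 1.33 and 4.33 FPM. This was 24.7% to 49.7% of Control, with a log2FC of −1.43 ± 0.24 that met the thresholds. Between ALL and HG + FFA the log2FC was −0.12 ± 0.25, and the departure from additivity was 0.39 ± 0.33. Set 4 kept its Control level with AII + NA, and the other 3 sets were lower with each stressor pair.

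**Figure D3:**
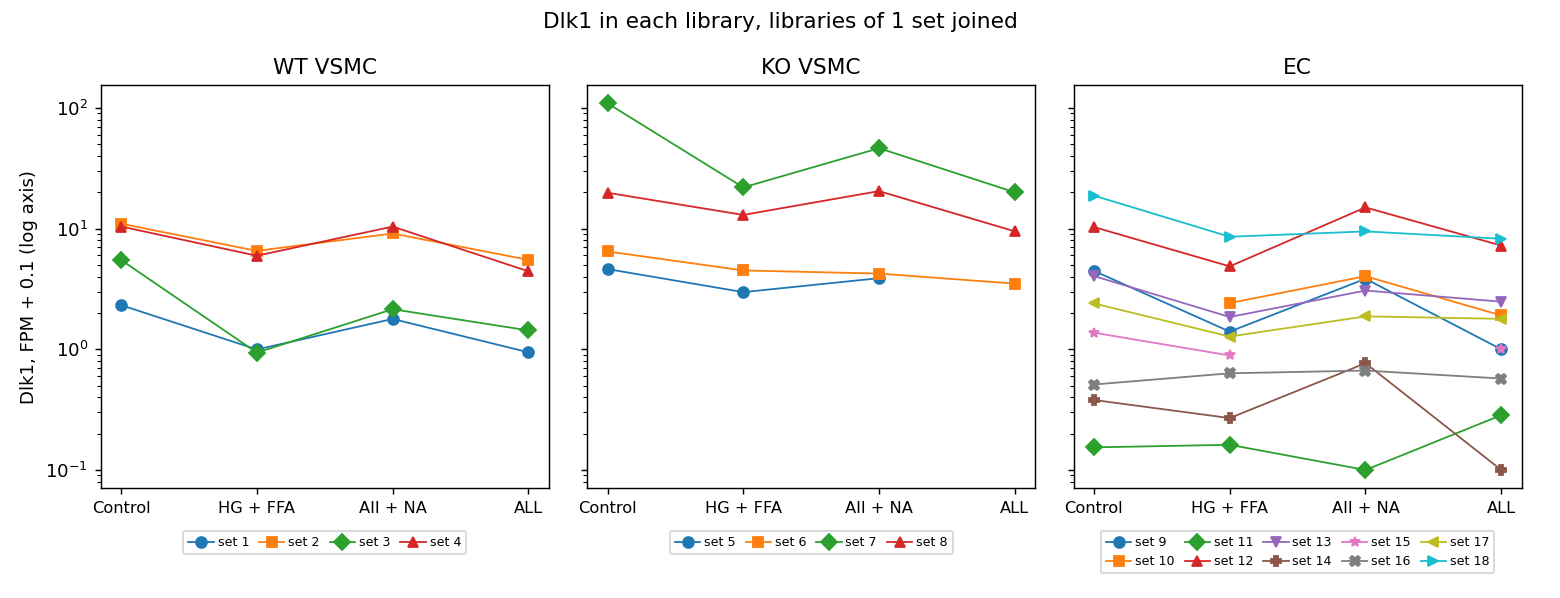
Dlk1 in each library of WT VSMC, KO VSMC and EC as FPM + 0.1 on a log axis, with the libraries of a set joined by a line across Control, HG + FFA, AII + NA and ALL. In both VSMC panels every set is lower with HG + FFA than in Control, and in EC 7 of 9 sets are.

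KO VSMC showed the same direction from a wider range of levels. Control, HG + FFA and AII + NA gave 4.52, 2.87 and 3.78 FPM in set 5. All 4 conditions gave 6.37, 4.398, 4.14 and 3.40 FPM in set 6, 109.02, 21.8, 46.2 and 19.9 FPM in set 7, and 19.7, 12.9, 20.3 and 9.38 FPM in set 8. The Control library of set 7 held the highest Dlk1 of all 69 libraries, and set 7 was also the furthest below Control when stressed. HG + FFA left 20.0% to 69.1% of Control in the 4 sets, with a log2FC of −1.13 ± 0.25 that passed in DESeq2 (FDR = 0.00209) and not in edgeR (FDR = 0.0720), so Dlk1 was not a DEG. It was called without set 5, and the log2FC ran from −1.34 to −0.59 over the sets left out. With all sets in the fit none of the 9 tested genes was a DEG, and 0.285% of all genes were. At an unadjusted p under 0.05 in edgeR, 3 were lower (6.07% of all genes) and Igf2r was higher. Such a p, in either direction, was found for 2181 of 17538 genes. Under ALL, which chose the gene, the log2FC was −1.53 ± 0.28 (n = 3, 18.2% to 53.4% of Control) and met the thresholds, as 0.314% of all genes did. It did not meet them without set 6, 7 or 8, with a log2FC between −1.78 and −1.01 over the sets left out. With AII + NA the log2FC was −0.59 (edgeR FDR = 0.509), and the WT VSMC value under ALL minus the KO VSMC value was 0.12 ± 0.40, again as a description.

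In EC, Dlk1 under Control ran from 0.0539 to 18.6 FPM with a median of 2.30 FPM, and with HG + FFA from 0.0617 to 8.45 FPM with a median of 1.24 FPM. The groups overlap, and 7 of 9 sets were lower with HG + FFA. The sets with more Dlk1 moved most clearly, for example set 18 from 18.6 to 8.45 FPM, set 12 from 10.2 to 4.76 FPM and set 9 from 4.36 to 1.30 FPM. The exceptions were set 11, with single counts in both libraries, and set 16, with 0.411 and 0.532 FPM. The log2FC was −0.93 ± 0.27 (edgeR FDR = 0.0497, DESeq2 FDR = 0.0043), a DEG beside 0.647% of all genes, with the edgeR value just inside the threshold. The call was lost without set 9, 10, 12, 13, 15, 17 or 18, with a log2FC between −1.05 and −0.80 over the sets left out. It was −0.75 (edgeR FDR = 0.220) without EC sets 9, 11 and 13 and kept the value of −0.93 with the animal as the block, where the FDR was 0.383. The summed fibroblast markers were also lower with HG + FFA in EC, with a mean log2 ratio of −0.48 ± 0.42 (SD) and in 8 of 9 sets, and their part in the change of Dlk1 was not tested.

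With AII + NA, Dlk1 in EC was lower in 5 of 8 sets and higher in 3. Under ALL it was lower in 7 of 9 sets, and the log2FC of −0.84 ± 0.27 passed in DESeq2 (FDR = 0.0152) and not in edgeR (FDR = 0.0880). Its median was 1.30 FPM under ALL and 2.97 FPM with AII + NA. Among the 9 tested genes 0 were DEG in EC under ALL and 0 with AII + NA, where 0.641% and 0% of all genes were. At an unadjusted p under 0.05, 3 of them were lower under ALL (9.35% of all genes), and with AII + NA Grb10 alone was higher (log2FC 0.13, 2.75% of all genes).

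Plagl1 was the third gene to meet the thresholds in WT VSMC under ALL. Control and ALL gave 13.7 and 10.0 FPM in set 1, 49.8 and 28.6 FPM in set 2, 31.7 and 22.4 FPM in set 3, and 238 and 98.6 FPM in set 4. All 4 sets were lower under ALL, at 41.3% to 73.3% of Control, and the groups overlap. The log2FC was −0.78 ± 0.20, and it lay between −0.88 and −0.58 when a set was left out. Without set 4 it was −0.58, short of the limit of 0.64, and without set 1 it was −0.88 but did not pass the FDR limit in edgeR. With HG + FFA, Plagl1 had no common direction, since set 2 went from 49.8 to 81.6 FPM and the other 3 were lower (log2FC −0.14). With AII + NA all 4 sets were lower, with a log2FC of −0.48 ± 0.20 (edgeR FDR = 0.468). In KO VSMC under ALL, set 6 went from 3.02 to 1.98 FPM, set 7 from 5.64 to 0.636 FPM and set 8 from 14.6 to 7.23 FPM. The log2FC was −1.42 ± 0.38 and did not meet the thresholds.

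Meg3, the maternal partner of Dlk1, changed less than Dlk1 in VSMC. Its log2FC in WT VSMC was −0.16 with HG + FFA and −0.34 ± 0.14 under ALL, with 2 of 4 and 3 of 4 sets lower. In KO VSMC under ALL it was −0.39 ± 0.12, with 3 of 3 sets lower at 68.2% to 90.8% of Control, and against AII + NA it was −0.52 ± 0.12, short of the log2FC limit of 0.64. In EC it was −0.63 ± 0.24 with HG + FFA (edgeR FDR = 0.153) and −0.73 ± 0.24 under ALL (edgeR FDR = 0.0972), lower in 7 of 9 sets each time. Without EC sets 9, 11 and 13 these were −0.96 (edgeR FDR = 0.0805) and −0.99 (edgeR FDR = 0.0828). The summed fibroblast markers in EC had a mean log2 ratio of −0.48 ± 0.42 (SD) with HG + FFA and −0.39 ± 0.43 under ALL. They were lower in 8 of 9 sets each time, and their part in the changes of Meg3 and Ndn in EC was not tested. The lowest share of Control for Meg3 was in EC set 18, which went from 142 FPM in Control to 26.0 with HG + FFA, 35.9 with AII + NA and 15.9 FPM with ALL. EC set 14 had under 1 FPM in all its libraries, with a set mean of 0.323 FPM, beside 236 FPM in set 16, and EC set 11 had 5.52 FPM.

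**Figure D4:**
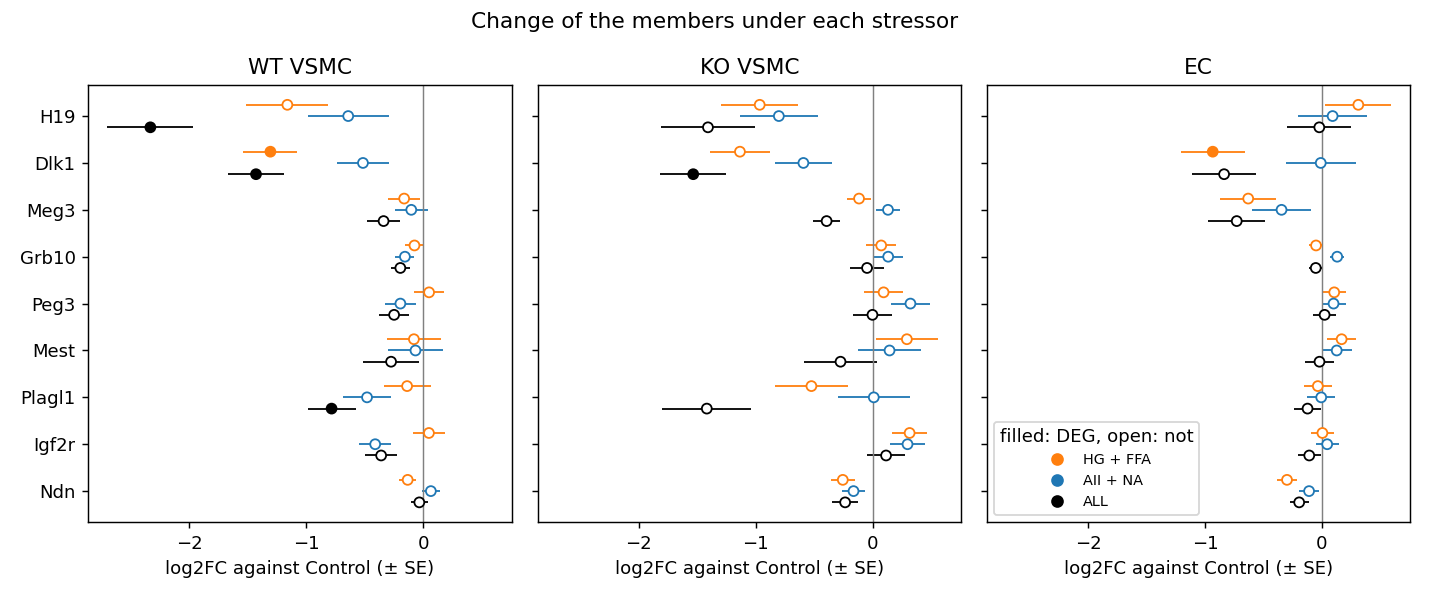
Fitted log2FC against Control with its SE for the 9 tested genes under HG + FFA, AII + NA and ALL in WT VSMC, KO VSMC and EC, with filled symbols for DEG. Under ALL, H19, Dlk1 and Plagl1 lie furthest below 0 in VSMC and Dlk1 and Meg3 in EC, and the other 5 genes stay between −0.41 and 0.32.

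The receptor and the adaptor of the pathway and the remaining genes gave no DEG with any stressor. Igf2r in WT VSMC had a log2FC of 0.05 with HG + FFA, −0.41 ± 0.14 with AII + NA (edgeR FDR = 0.295) and −0.36 under ALL, lower in 4 of 4 sets in the last 2. In KO VSMC it had 0.32 with HG + FFA, and the WT VSMC value with AII + NA minus the KO VSMC value was −0.70 ± 0.21 (edgeR FDR = 0.395). Grb10 in WT VSMC under ALL was at 75.1% to 97.6% of Control and had a log2FC of −0.20. Peg3 was at 64.0% to 94.8% and Mest at 33.2% to 119% of Control in the same libraries, with log2FC of −0.25 and −0.27. In KO VSMC, Peg3 was higher with AII + NA in 4 of 4 sets (104% to 166% of Control) but lower under ALL in 2 of 3. Grb10 was higher there in 3 of 4 sets with each stressor pair, and Mest with HG + FFA was at 85.7% to 345% of Control. In EC with HG + FFA, Peg3 and Mest were each higher in 6 of 9 sets, at 88.9% to 127% and 71.3% to 150% of Control. Ndn was the steadiest gene in WT VSMC, at 84.0% to 104% of Control under ALL. In EC, Ndn passed the FDR limit with HG + FFA (log2FC −0.30 ± 0.08, edgeR FDR = 0.0351, lower in 8 of 9 sets) but not the fold limit, and it was at −0.19 under ALL. Without EC sets 9, 11 and 13 these were −0.34 (edgeR FDR = 0.0613) and −0.20.

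Counted over the list, 1 of 9 tested genes was lower as a DEG in WT VSMC with HG + FFA, 0 with AII + NA and 3 under ALL, beside 0.101% of all genes lower with HG + FFA and 0.964% under ALL. DEG of either direction with AII + NA were 0.0414% of all genes, and 3 of the 9 were lower there at an unadjusted p under 0.05 (4.44% of all genes). In KO VSMC the counts were 0, 0 and 1, with 0.0969% of all genes lower under ALL. With AII + NA, where 0% of all genes were DEG, 2 were lower at an unadjusted p under 0.05 (5.83% of all genes) and DESeq2 alone called none of them. In EC the counts were 1, 0 and 0, with 0.397% of all genes lower with HG + FFA, and no gene of the list was higher as a DEG in any of the 9 contrasts with Control. DESeq2 alone added Dlk1 in KO VSMC with HG + FFA and in EC under ALL. The median log2FC of the 9 genes in WT VSMC under ALL was −0.34 beside −0.01 for all genes tested, with 0 of 9 above 0. In KO VSMC under ALL it was −0.27 beside −0.00, and these 2 medians come from the contrasts that chose the genes. With AII + NA in KO VSMC it was 0.13 beside 0.01, with 6 of 9 above 0, and in EC with HG + FFA −0.03 beside −0.00. Markers of dividing cells were higher with HG + FFA in WT VSMC, by a mean log2 ratio of 0.62 ± 0.20 (SD) for the sum of 5 genes and in 4 of 4 sets, and by 0.68 ± 0.32 under ALL. The smooth muscle markers were higher by 1.12 ± 0.84 with AII + NA and by 0.90 ± 1.01 under ALL, where 1 of 4 sets was lower. The fibroblast markers had −0.20 ± 0.27 under ALL, lower in 3 of 4 sets. None of these was tested for its part in the changes of H19, Dlk1 and Plagl1.

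The contrasts between treatments and genotypes gave few calls. Beside H19, none of the 9 genes was a DEG for ALL against AII + NA in WT VSMC, where Dlk1 had a log2FC of −0.91 ± 0.24. These contrasts share the ALL libraries with those that chose the genes. None was a DEG for ALL against HG + FFA in any cell type, among 0.0296% of all genes for WT VSMC, 0% for KO VSMC and 0% for EC. In EC, 0 of the 9 were lower at an unadjusted p under 0.05, beside 2.84% of all genes, and DESeq2 alone called 0 in each cell type. Against AII + NA, 0.302% of all genes in KO VSMC and 0.63% in EC were DEG and none of the 9 was. The difference of a stressor effect between the genotypes was not called for any of the 10 genes in edgeR, with 0%, 0% and 0.0109% of all genes called for HG + FFA, AII + NA and ALL. At an unadjusted p under 0.05, 0 and 2 of the 10 were lower in WT VSMC in this difference for HG + FFA and AII + NA, beside 1.75% and 4.97% of all genes, and DESeq2 alone called none of them either. Departure from additivity was called for none of the 9 genes in any cell type, with 0% of all genes called in KO VSMC and EC as well.

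KO VSMC and WT VSMC under Control differed strongly in single sets, and with all sets in the fit no gene of the list was called. H19 had a log2FC of −2.16 ± 1.20 for KO against WT (edgeR FDR = 0.457), Plagl1 −2.51 ± 0.99 (edgeR FDR = 0.401) and Dlk1 2.27 ± 0.98 (edgeR FDR = 0.409). Grb10 had −1.14 ± 0.48 and Igf2r −0.86 ± 0.33 (edgeR FDR = 0.394). None of the 9 tested genes was a DEG, 2 were lower and 1 higher at an unadjusted p under 0.05 (5.27% and 6.9% of all genes), and 0.00622% of all genes were called. The KO VSMC Control values of H19 ran from 2.93 to 154 FPM and overlap the WT VSMC values of 34.3 to 563 FPM. KO VSMC set 5, which had kept most Egfr RNA of its genotype, was nearest to WT VSMC in H19, Grb10 and Plagl1. This set also had 5380 FPM of fibroblast markers, beside 1273 to 1679 FPM in KO VSMC sets 6 to 8 and 3257 to 8050 FPM in WT VSMC. The part of Egfr or of these markers in the levels of set 5 was not tested. Without set 5 Grb10 alone of the 9 was called, in a fit that called 348 of 16492 genes instead of 1. With 1 set left out, the log2FC ran from −3.82 to −1.17 for H19, from −3.43 to −1.12 for Plagl1 and from 0.51 to 2.64 for Dlk1.

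EC and WT VSMC under Control differed in 3 of the 9 genes. Mest, a gene linked to mesodermal growth, was 1.71, 2.81, 2.64 and 2.24 FPM in WT VSMC sets 1 to 4 and ran from 2.48 to 728 FPM with a median of 18.7 FPM in EC (9 libraries of 8 animals). For the test the counts of sets 17 and 18, which share an animal, were summed. Its log2FC was 6.08 ± 1.64 (edgeR FDR = 0.0319), and the groups overlap at their ends. Peg3 was 7.32, 15.2, 9.74 and 14.4 FPM in WT VSMC and ran from 16.9 to 92.1 FPM in EC with a median of 36.1 FPM, with no overlap, and its log2FC was 1.81 ± 0.42 (edgeR FDR = 0.0189). Ndn was 222, 202, 189 and 210 FPM in WT VSMC and ran from 44.2 to 203 FPM with a median of 76.2 FPM in EC, where set 13 alone reached the WT VSMC range, with a log2FC of −1.15 ± 0.32 (edgeR FDR = 0.0334). Of all genes 9.29% were DEG in this contrast, 4.96% higher and 4.33% lower, which is the background for 3 of 9. Meg3 had a log2FC of −2.63 ± 0.92 that passed in DESeq2 alone (FDR = 0.0390, edgeR FDR = 0.0740), and H19 had −2.69 ± 1.38 (edgeR FDR = 0.204). These calls rest on all 4 WT VSMC sets. Without set 1 or 3 none of the 9 genes was called, and without set 2 or 4 Peg3 alone was. Without EC set 18 Mest was not called and without EC set 12 Ndn was not, whereas without EC set 14 Meg3 was called in addition. The edgeR FDR over all sets left out reached 0.0938 for Mest, 0.0892 for Ndn and 0.0657 for Peg3. EC set 9 and WT VSMC set 1 come from the same animal, and without EC set 9 the same 3 genes were called. Without EC sets 9, 11 and 13 the log2FC was 6.74 for Mest, 2.05 for Peg3 and −1.42 for Ndn, and these 3 and Meg3 (−2.81, edgeR FDR = 0.0497) were called.

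The EC sets with few endothelial transcripts were also those with little Mest. Sets 11, 9 and 13 had set means of 3.33, 5.19 and 6.10 FPM of Mest, close to the 1.61 to 2.87 FPM of WT VSMC, with 352 to 415 FPM of endothelial markers. Sets 17 and 16, with 975 and 1390 FPM of these markers, had 9.57 and 19.1 FPM of Mest. The other 5 sets, with 3013 to 5557 FPM of markers, had between 129 and 767 FPM of Mest, set 12 being highest in both. Peg3 did not follow this order as closely, with 58.6 FPM in set 11 and 15.1 FPM in set 9. All EC points share their batch, and 9 animals stand behind the 10 sets.

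**Figure D5:**
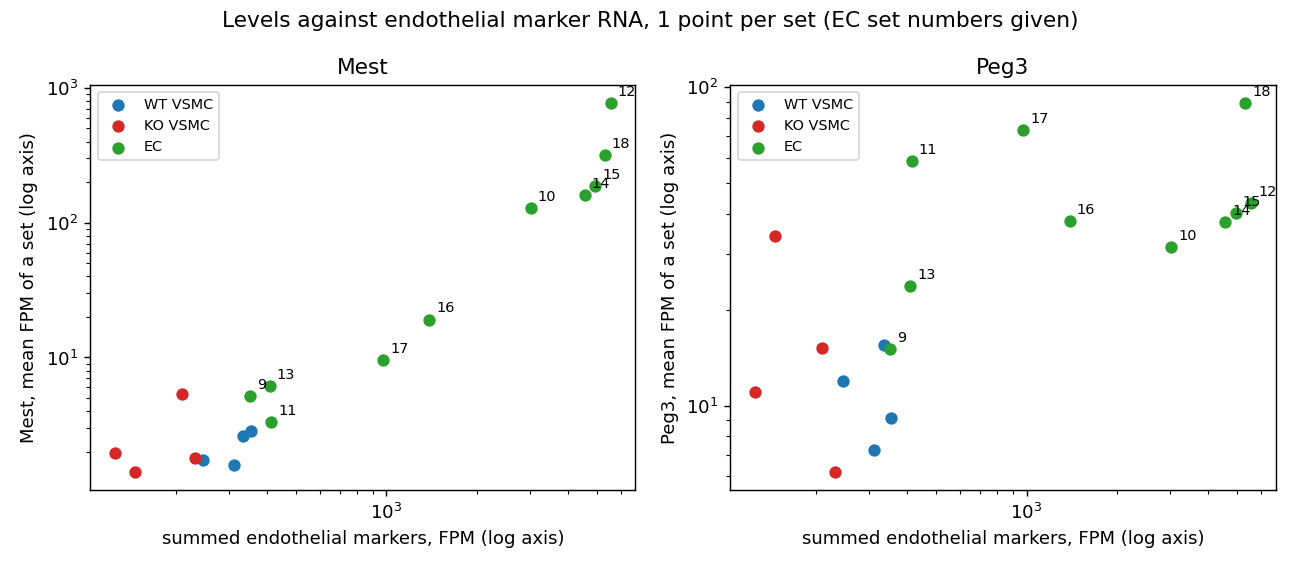
Set means of Mest and of Peg3 (FPM, log axis) against the summed FPM of 8 endothelial markers (log axis) for the WT VSMC, KO VSMC and EC sets. Mest lies between 1.42 and 6.10 FPM in the 8 VSMC sets and the 3 EC sets with the fewest endothelial transcripts, and between 129 and 767 FPM in the 5 EC sets with the most.

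The reads of Mest need care because 47.7% of its exon length is shared with Copg2 on the other strand and the strand setting of the counting is not stated. Copg2 was itself higher in EC than in WT VSMC, by a log2FC of 0.88. H19 shares 7.90% of its exon length with other genes, of which the Mir675 row had 0 counts in every library, and Meg3 and Plagl1 share 1.83% and 0.444%. Igf2 shares 58.4% of its exon length with Gm49394 on the same strand, and the Gm49394 row had 0 counts in every library. How reads in shared exons were counted is not stated, so the level of Igf2 may be underestimated.

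Against Control, neighbouring genes of the same domains and genes of a wider imprinted network were called only in WT VSMC under ALL. In WT VSMC under ALL, where 0.964% of all genes were lower as DEG, 1 of 11 tested genes of a wider imprinted network was, Cdkn1c, a maternally expressed inhibitor of cell division, with a log2FC of −0.85. Of 18 tested genes in the same domains as the 10 genes, 3 were lower, Lsp1 near H19 (−0.75), Mirg in the Dlk1 and Meg3 domain (−0.69) and Airn, the non-coding RNA that overlaps Igf2r (−0.68). These 4 fall in the contrast that chose the genes. None of these 2 lists had a DEG with HG + FFA or AII + NA in any cell type, where 4 and 3 genes of the same domains were lower in WT VSMC at an unadjusted p under 0.05 (5.9% and 4.44% of all genes). In KO VSMC with HG + FFA, 4 of 12 network genes were higher and 2 lower by this measure, beside 2181 of 17538 genes in either direction. With AII + NA there, 1 of 18 genes of the same domains was higher and 4 were lower, beside 1711 of 17538 genes in either direction. The list of the IGF system holds 14 genes, namely Igf1, Igf1r, Insr, the substrate genes Irs1 and Irs2, the Igfbp genes and the Igf2bp genes. Of these and of 11 genes that maintain imprints, such as Dnmt1, Uhrf1 and Trim28, 0 were DEG in any contrast with Control. In those contrasts between 0% and 2.18% of all genes were DEG.

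Between EC and WT VSMC, where 4.33% of all genes were lower and 4.96% higher as DEG, the IGF system had 3 lower and 1 higher genes out of 14. The binding proteins Igfbp6, Igfbp5 and Igfbp4 were lower in EC with log2FC of −5.53, −4.83 and −2.60, and the insulin receptor gene Insr was higher with 0.83. In the imprinted network, Asb4 (5.17) and Ppp1r9a (3.38), both on chromosome 6, were higher and Gnas (−0.84) was lower. In the same domains, Phactr2 (1.48), near Plagl1, and Copg2 were higher, and Lsp1 (−2.84), Begain (−2.39) and Mrpl23 (−0.74) were lower. The genes that maintain imprints gave 0 DEG of 11, with 5 higher at an unadjusted p under 0.05 in edgeR (17.2% of all genes).

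Genes that share a domain were compared over animals. Set means of log2 FPM of Dlk1 and Meg3 had a Pearson r of 0.61 (exact permutation p = 0.0742) and a Spearman rho of 0.30 (exact permutation p = 0.437) over 9 EC animals, and r became −0.40 without the 2 animals farthest from the median of Dlk1. Over the 8 VSMC animals r was 0.24 and rho 0.31 (exact permutation p = 0.551 and 0.462). For H19 and Igf2 over the VSMC animals r was 0.53 and rho 0.57 (exact permutation p = 0.182 and 0.151), with r = 0.78 without the 2 farthest. Igf2 had only 0 to 16 counts per VSMC library, so counting error weighs heavily in these values. The VSMC animals pool 4 WT and 4 KO. Over the EC animals the sign was opposite, with r of −0.54 and rho of −0.32 (exact permutation p = 0.113 and 0.400), and r = −0.83 without the 2 farthest. In this family of 8 relations the smallest adjusted p was 0.452, so none held.

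Within WT VSMC, the genes whose differences from their set mean were most like those of H19 over the 16 libraries were Gsn, B3gnt8 and Echdc2, with r of 0.94, 0.94 and 0.94, out of 11508 genes. Over the 15 KO VSMC libraries the genes most like Dlk1 were Arf6, Ak5 and Gas1, with r of 0.95, 0.94 and 0.94 out of 11605 genes. These are descriptions over libraries that share animals, and the ALL libraries that chose H19 and Dlk1 are among them.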

How the data were processed

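RNA-Seq libraries of poly(A) RNA from 16 WT VSMC, 15 KO VSMC and 38 EC cultures were used. The authors aligned the reads with HISAT2 2.1.0 to mm39, assigned them to genes of Ensembl annotation with featureCounts (option -M, exons) and deposited whole-number counts per gene, neither normalized nor filtered. Strand setting and the weighting of multiply aligned reads are not given in the sources used here. No columns of per-sample values were left unmapped. Gene symbols came from the reference annotation of GRCm39, which matched 56310 of 56953 identifiers, including all 10 genes.

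The 10 genes and the further lists were chosen with earlier results of these data known. All 10 are named in every cell type, though not for every stressor, and of the other lists at most the 5 called genes with the largest |log2FC|. Counts were fitted for all genes in R 4.3.3 with edgeR 4.0.16 (TMM, filterByExpr, quasi-likelihood test, condition and set in the model, without set between cell types or genotypes under Control, with EC sets 17 and 18 summed), and again with DESeq2 1.42.0. Benjamini-Hochberg adjustment covered every gene tested. A DEG was a protein-coding or lncRNA gene with an FDR under 0.05 by both tools, a |log2FC| not below 0.64 and 3 FPM or more on average in a compared group. FPM used TMM over all 69 libraries, with 0.1 FPM added before logarithms. The SE of a log2FC was derived from the edgeR F statistic. Descriptive values used Python 3.11.15 (numpy 2.4.6, pandas 2.3.3, scipy 1.17.1) and figures matplotlib 3.10.9. The fits within a cell type were tested on simulated data, for ALL against Control. The fits between genotypes or cell types were not.

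Set numbers pair the libraries, since a set is 1 animal at 1 passage, treated together. Deviations of same-set libraries from their group means correlated with a mean r of 0.711, 0.676 and 0.730 (WT VSMC, KO VSMC, EC) (lowest 0.442). No libraries were duplicates, the smallest chi-square per gene being 43.5. Where 0 counts were found, 3 counts were taken as the limit, which covers counting error only. The alternatives were DESeq2 alone, other scaling, no count filter, no set in the model, only the groups compared, the animal as the block, single sets left out, and, chosen after the data were seen, EC without sets 9, 11 and 13. KO VSMC set 5 under ALL, EC set 10 Control and EC set 15 AII + NA were not analysed here.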

Additional observations from a re-analysis of the deposited data

Results flagged for a closer look

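Of 110 checks for a library that stands apart from the others of its group (Dixon's test over groups of 4 to 10 libraries), 6 picked a library, where chance picks about 1 in 20. Igf2 in EC set 9 was far above the other EC libraries with HG + FFA (3.87 FPM) and with ALL (3.91 FPM). Meg3 in EC set 14 was the lowest with HG + FFA (0.169 FPM) and with ALL (0.0834 FPM), and it was below 1 FPM in the Control and AII + NA libraries of that set too. Igf2r stood apart in EC set 18 with AII + NA, at 1363 FPM, as the highest, and in WT VSMC set 1 with HG + FFA, at 216 FPM, as the lowest. In 90 comparisons of the direction of a gene's change between cell types, none had every set of 1 cell type opposed to every set of another.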

How the results depend on the processing

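The changes of H19 and Dlk1 rest on the pairing of libraries within sets. Without the replicate block the count of DEG among the 9 genes was 0 in WT VSMC for HG + FFA (1 with the block), ALL (3) and ALL against AII + NA (1), 0 in KO VSMC for ALL (1) and 0 in EC for HG + FFA (1), and those fits called 0 genes of all in VSMC. EC with HG + FFA gave 0 also with the animal as block and without EC sets 9, 11 and 13, an alternative chosen after seeing the data. With only the 2 groups compared, the count was 0 in WT VSMC for HG + FFA, 1 for AII + NA (H19), 2 for ALL against AII + NA, and 1 in KO VSMC for ALL against AII + NA (Dlk1), in fits that called 76, 49, 69 and 142 genes of all (48, 7, 91 and 53 with all conditions). DESeq2 alone and the fit without a count filter gave 2 in WT VSMC for ALL against AII + NA, 1 in KO VSMC for HG + FFA and 1 in EC for ALL, and DESeq2 alone gave 1 in EC for ALL against AII + NA, in each case with Dlk1 added. With a set left out the counts were 0 to 1 in WT VSMC for HG + FFA (0 without set 1), 0 to 2 for ALL against AII + NA, 0 to 1 in KO VSMC for HG + FFA (1 without set 5) and for ALL (0 without set 6, 7 or 8), 0 to 1 in EC for HG + FFA (0 without set 9, 10, 12, 13, 15, 17 or 18) and for ALL (1 without set 11), 0 to 1 for KO against WT VSMC and 0 to 4 for EC against WT VSMC. The cause of these shifts was not tested. Signs turned only for small changes. Plagl1 had a log2FC of −0.01 with AII + NA in KO VSMC under DESeq2 and without the filter, of 0.12 and 0.00 with HG + FFA in EC without the block and without sets 9, 11 and 13, and of 0.00, 0.02 and 0.03 with AII + NA in EC without the block, with the animal as block and without those sets. Dlk1 had 0.14 with AII + NA in EC without those sets, and H19 had −0.05 with AII + NA and 0.09 with ALL in EC with only the 2 groups compared. With a set left out, the log2FC ran from −0.48 to 0.06 (Plagl1, WT VSMC, HG + FFA), −0.19 to 0.08 (Plagl1, KO VSMC, AII + NA), −0.08 to 0.56 (H19, EC, HG + FFA), −0.07 to 0.01 (Plagl1, EC, HG + FFA), −0.15 to 0.15, −0.11 to 0.28 and −0.07 to 0.07 (Dlk1, H19 and Plagl1, EC, AII + NA) and −0.13 to 0.08 (H19, EC, ALL). Of the other alternatives, 127 counts were judged the same, 10 stronger and 8 weaker. Among the fold changes, 193 kept their direction and their side of the threshold, 5 were stronger, 11 weaker and 10 reversed. With a set left out, 131 counts were judged the same, 4 stronger and 18 weaker. Of the fold changes there, 181 were judged the same, 2 stronger, 28 weaker and 18 reversed. Depth limits H19, Dlk1 and Igf2 in EC, where some libraries held 0 counts of each.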
